A study of Mus musculus with 20 samples.

Results

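Macrophage genes of the embryonic heart are described here as a set of 10 genes, which were taken by name from a table of normalised read counts for 48795 genes: Csf1r, Cx3cr1, Ptprc, Adgre1, Mrc1, Cd68, C1qa, C1qb, C1qc and Lyz2. All 10 were found in the table, and all 10 passed the filter used for the tests, which kept genes that reached a normalised count of 10 in 5 or more libraries of the fit. The table covered RNAseq of 20 mouse hearts taken at mid-gestation (E13.5), 5 in each of 4 groups. Dp3Tyb embryos carried Dp(16Mir802-Zbtb21)3TybEmcf and Ts1Rhr embryos carried Dp(16Cbr1-Fam3b)1Rhr, both extra copies of a segment of mouse chromosome 16 related to human chromosome 21, and each strain was compared with wild-type (WT) littermates of its own cohort. All mice were on a C57BL/6J background, and neither duplicated segment held any of the 10 genes. The question behind the comparison was what the hearts of a strain with congenital heart defects (Dp3Tyb) and of a strain carrying a shorter duplication (Ts1Rhr) have in common and where they differ. Replicates 1 and 2 of Ts1Rhr were labelled as having heart defects and the other 3 as having none, so that the group was kept together by genotype alone. Each library was a whole heart, so a change in the number of macrophages and a change in RNA per macrophage cannot be told apart.

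Macrophages are the main resident immune cells of the embryo. In the mouse they first arise in the yolk sac and are later joined by cells from the fetal liver, and they enter the heart before its septation is complete, where they clear dying cells and support the growth of vessels and of lymphatics. Their survival depends on the receptor encoded by Csf1r, and their identity on transcription factors such as PU.1, encoded by Spi1. The set spans 3 roles. Csf1r, Cx3cr1 and Ptprc encode the growth factor receptor, the fractalkine receptor and the leukocyte phosphatase CD45. Adgre1 and Mrc1 encode the surface proteins F4/80 and the mannose receptor CD206. C1qa, C1qb and C1qc encode the chains of complement component C1q, and Cd68 and Lyz2 encode a lysosomal membrane protein and lysozyme.

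The 3 C1q genes lie side by side on chromosome 4 of the mouse genome (GRCm38.p6 coordinates, taken from RefSeq by gene symbol), with C1qb at chr4:136880126-136886200 and C1qc at chr4:136889801-136892936, both on the minus strand, and C1qa at chr4:136895916-136898844. Lyz2 lies on the minus strand of chromosome 10 at chr10:117277541-117282272. Promoter sequences from RefSeq were at hand for 7 of the 10 genes, without Csf1r, Adgre1 and C1qa. The 250 bases before a transcript start listed in RefSeq are shown for C1qb and C1qc, as neighbours of 1 cluster, and for Lyz2, the gene with the lowest P-values in both strains. The start used for C1qc lies inside the span given above, so that the last bases of its sequence overlap the gene. The sequences are written 5′ to 3′ on the minus strand, with capitals marking the letters AGGAAGT or, read on the other strand, ACTTCCT, a core bound by PU.1 and other ETS factors that was picked with these sequences in view.
C1qb (chr4:136886201-136886450): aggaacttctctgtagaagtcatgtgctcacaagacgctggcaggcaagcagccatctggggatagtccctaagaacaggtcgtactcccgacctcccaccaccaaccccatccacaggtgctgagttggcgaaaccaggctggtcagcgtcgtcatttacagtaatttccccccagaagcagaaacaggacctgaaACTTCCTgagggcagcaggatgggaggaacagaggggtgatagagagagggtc
C1qc (chr4:136892915-136893164): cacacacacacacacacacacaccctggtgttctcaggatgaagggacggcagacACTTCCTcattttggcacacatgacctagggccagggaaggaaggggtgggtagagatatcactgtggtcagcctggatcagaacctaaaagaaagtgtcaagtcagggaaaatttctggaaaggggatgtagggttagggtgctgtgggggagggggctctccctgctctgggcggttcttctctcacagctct
Lyz2 (chr10:117282273-117282522): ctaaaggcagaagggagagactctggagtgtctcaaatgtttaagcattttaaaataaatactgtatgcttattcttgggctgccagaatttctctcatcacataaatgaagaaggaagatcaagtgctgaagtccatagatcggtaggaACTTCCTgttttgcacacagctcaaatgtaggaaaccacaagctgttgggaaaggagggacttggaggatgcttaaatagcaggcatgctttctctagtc
The 7 genes had 8 windows, since Ptprc had 2 that overlap. The letters occurred in 6 of the 8 (both of Ptprc and those of Mrc1, C1qb, C1qc and Lyz2) and not in those of Cx3cr1 and Cd68, while 7.69% of the 32851 promoter windows of the same length in the reference held them. A match of letters is a description of the sequence and not a site shown to be bound.

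The libraries held between 6.60 M and 19.6 M reads, of which 540 to 3761 fell in the 10 genes, and single genes were counted on 16 to 861 reads per library. Values are reads divided by the library's size factor, a scaling across all 20 libraries together. Mitochondrial genes took 4.85% to 19.5% of the reads, and over 10% in 7 libraries: replicate 5 of the WT hearts and replicate 5 of the mutant hearts in the Dp3Tyb cohort, replicates 1, 2 and 4 of the WT hearts in the Ts1Rhr cohort, and the 2 Ts1Rhr hearts labelled as having defects. WT replicate 5 of the Dp3Tyb cohort stood apart with the fewest reads and the highest mitochondrial share (19.5%). The duplicated segments matched the labels: 28 of 28 tested genes between Mir802 and Zbtb21 were above WT in Dp3Tyb hearts (median log2 fold change 0.52), and 21 of 22 between Cbr1 and Fam3b in Ts1Rhr hearts (median 0.49).

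Per kilobase of transcript, the order of the mean levels over the 20 hearts was Lyz2, C1qa, Mrc1, Csf1r, C1qc, Cx3cr1, Cd68, C1qb, Adgre1 and Ptprc. Lyz2 stood at 139 ± 31.5 normalised counts per kilobase (SD, n = 20) and Ptprc at 13.4 ± 3.22. C1qb and C1qc, which join C1qa in the same protein, stood at 53.6 ± 8.96 and 73.0 ± 14.3, against 104 ± 24.1 for C1qa. Adjacent levels in the middle of the order were not separated: Mrc1 was above Csf1r in 12 of 20 hearts, Cx3cr1 above Cd68 in 13 and Cd68 above C1qb in 10. At the lower end C1qb was above Adgre1, and Adgre1 above Ptprc, in 20 of 20 hearts.

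**Figure D1:**
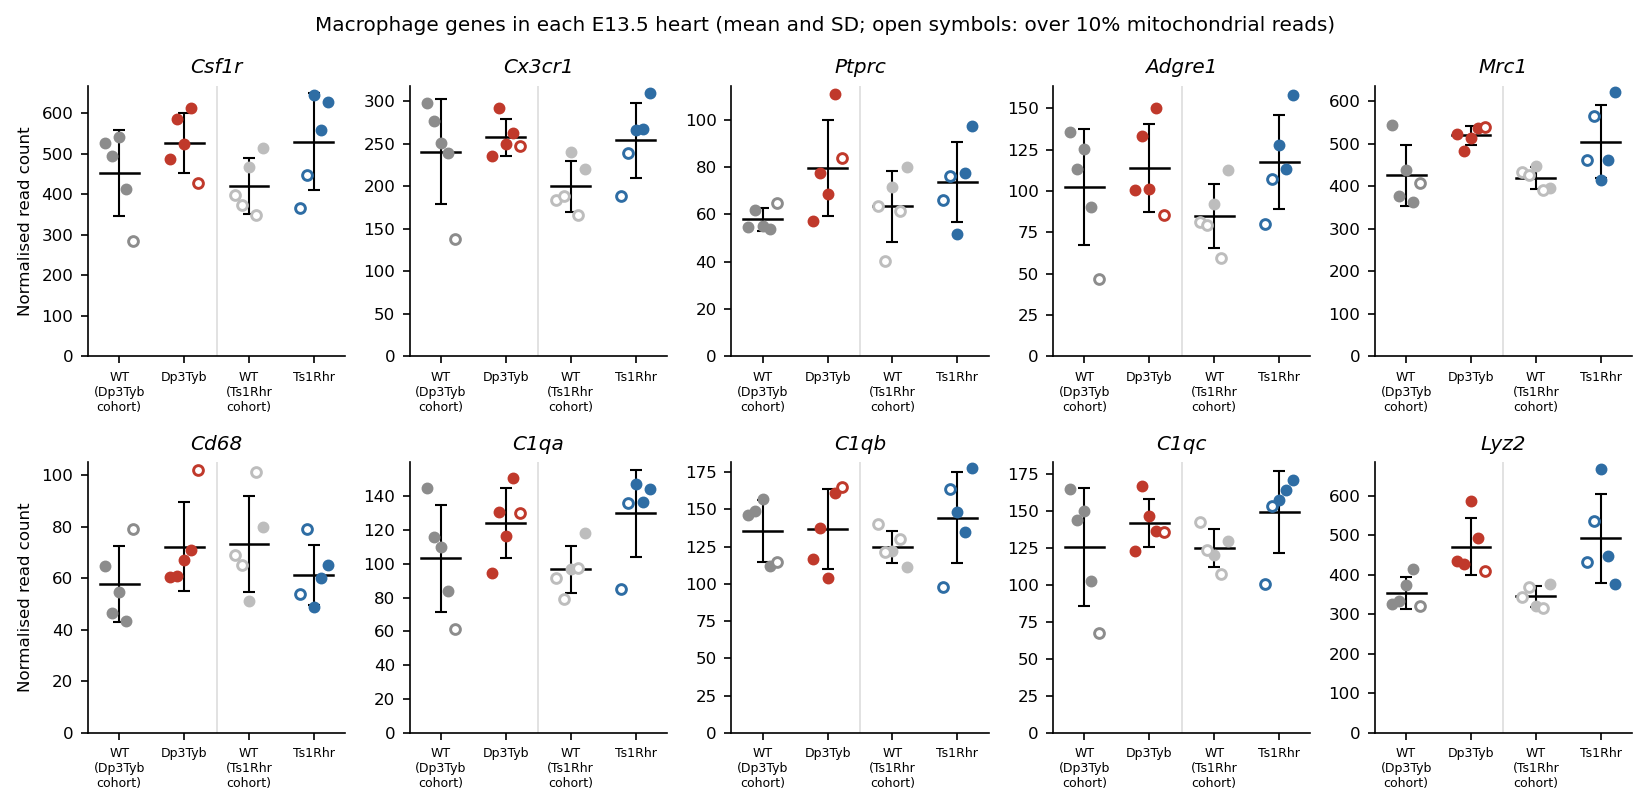
Normalised read counts (y axis) of the 10 macrophage genes in each E13.5 heart, by group (x axis, 5 hearts each), with the mean and SD in black and open symbols for libraries with over 10% mitochondrial reads. Lyz2 in Ts1Rhr is the one case in which the mutant and WT hearts do not overlap, by less than 1 normalised count, and WT replicate 5 of the Dp3Tyb cohort is the lowest point for Csf1r, Cx3cr1, Adgre1, C1qa and C1qc.

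In Dp3Tyb hearts the mean level of every one of the 10 genes was above that of their WT littermates, but no gene passed the test. The median log2 fold change of the 10 was 0.27, against -0.0027 over all 14763 genes tested, of which 48.9% were above 0. The threshold, an adjusted P-value of 0.05 in limma on log2(value + 1), was passed by 0 of the 10 genes and by 8 genes in all (0.0542%). DESeq2 and edgeR, run on the reads recovered from the table, also called 0 of the 10, and 0.159% and 0.061% of all genes they tested. At an unadjusted P-value under 0.05, 3 of the 10 genes were higher (Lyz2, Mrc1 and Ptprc), against 1.59% of all genes tested, and none of the 10 separated the groups, against 0.501%. The direction rested in part on a single WT heart: without WT replicate 5, 7 of 10 genes were above WT and the median was 0.12, with Adgre1, C1qb and Cx3cr1 just below 0. It also moved with lung and foregut markers, which were above WT in Dp3Tyb hearts for 11 of 11 tested genes: with their mean level as a covariate, 8 of 10 macrophage genes were above WT, the median was 0.058 and 1 gene had an unadjusted P-value under 0.05.

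In Ts1Rhr hearts 9 of the 10 genes were above their WT group, and again no gene passed the test. The median log2 fold change was 0.28, against -0.0016 over all 14867 genes tested, of which 49.6% were above 0. The threshold was passed by 0 of the 10 genes in limma, DESeq2 and edgeR, which called 4 genes (0.0269%), 0.168% and 0.0269% of all genes they tested. At an unadjusted P-value under 0.05, 5 of the 10 were higher (Lyz2, C1qa, Cx3cr1, Mrc1 and Adgre1), against 2.86% of all genes tested. The gene below WT was Cd68. The count of 9 was the same without each of the 10 libraries in turn, with medians between 0.22 and 0.41. The number under an unadjusted P-value of 0.05 ran from 1 (without Ts1Rhr replicate 5 or without WT replicate 2) to 8 (without Ts1Rhr replicate 1).

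**Figure D2:**
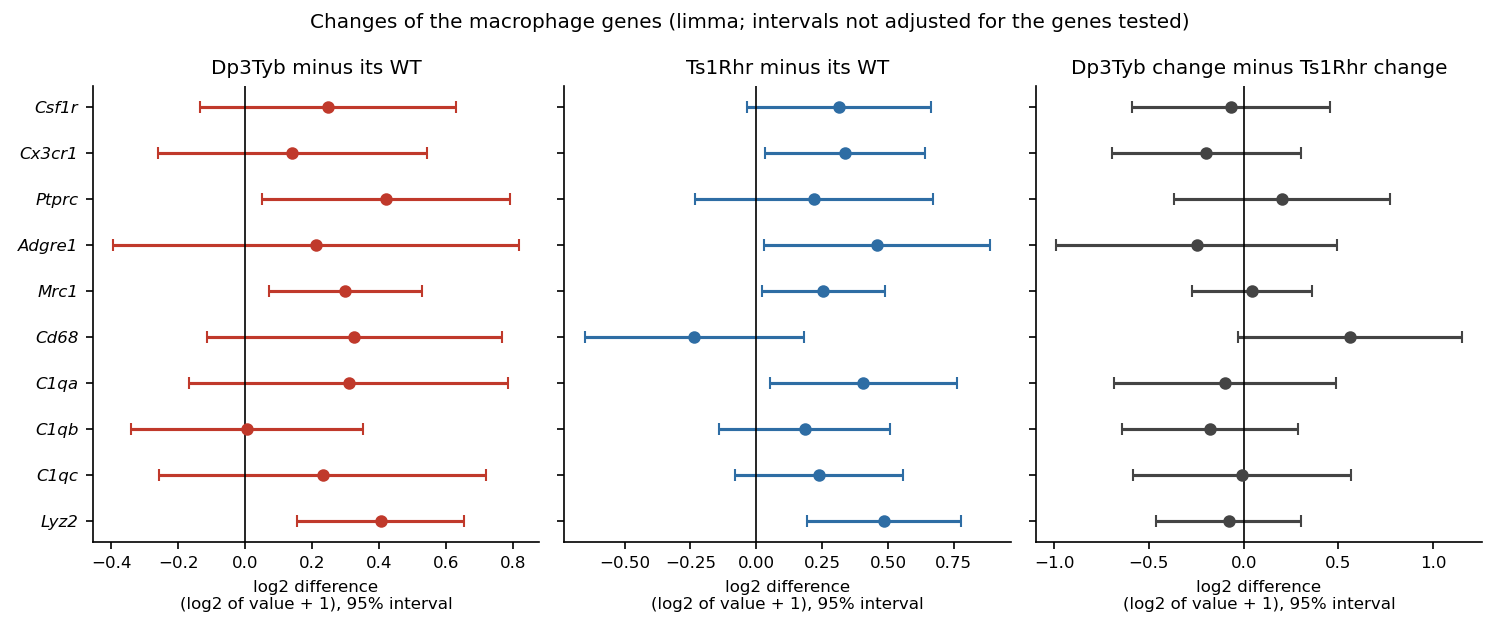
Log2 differences (x axis, log2 of value + 1) of the 10 macrophage genes (y axis) in Dp3Tyb and Ts1Rhr hearts against their own WT groups, and the Dp3Tyb change minus the Ts1Rhr change, with 95% intervals from limma that are not adjusted for the number of genes tested. Lyz2 lies furthest from 0 relative to its interval in both strains, Cd68 has opposite signs in them, and all intervals of the difference between strains reach 0.

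Lyz2, the lysozyme made by macrophages and other myeloid cells, gave the lowest P-value of the 10 genes in both strains. In the Dp3Tyb cohort its normalised counts in replicates 1 to 5 were 326, 334, 374, 415 and 320.0 in WT hearts and 435, 428, 586, 494 and 409.8 in Dp3Tyb hearts. Of the Dp3Tyb hearts, 4 of 5 were above the highest WT heart and the fifth, replicate 5, was just below it. The log2 fold change was 0.41 ± 0.11 (SE), with an unadjusted P-value of 0.0044 and an adjusted P-value of 1 in limma and 0.439 in DESeq2. In the Ts1Rhr cohort the counts were 343, 369, 322, 316 and 376 in WT hearts and 432, 536, 666, 448 and 376 in Ts1Rhr hearts. All 5 Ts1Rhr hearts were above all 5 WT hearts, as 0.619% of all genes tested were, but the lowest of them (376.4) exceeded the highest WT heart (376.0) by less than the value of 1 read. The log2 fold change was 0.48 ± 0.13, with an unadjusted P-value of 0.0035 and an adjusted P-value of 0.795 in limma and 0.225 in DESeq2. The lowest adjusted P-value of Lyz2 over the alternatives was 0.0899 for Dp3Tyb and 0.172 for Ts1Rhr, and the highest were 1 and 0.999. Lyz2 has a near-identical neighbour, Lyz1, between which the counting could have split reads, and Lyz1 was at 33.7 to 58.9 normalised counts in the group means. With the values of both genes added, the log2 fold changes were 0.39 and 0.50. The change of Lyz2 alone lay between 0.32 and 0.46 in Dp3Tyb, and in Ts1Rhr hearts between 0.34 and 0.57, under every alternative.

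Mrc1, the mannose receptor of tissue-resident macrophages, had counts of 543, 377, 437, 363 and 408 in the WT hearts and 522, 484, 514, 536 and 539.9 in the Dp3Tyb hearts, in the order of replicates 1 to 5. Of the WT hearts, 4 of 5 were below every Dp3Tyb heart, while WT replicate 1 was above all of them. The log2 fold change in limma was 0.30 ± 0.10 (unadjusted P-value 0.0151, adjusted 1). Mrc1 was also the least variable of the 10 genes in Dp3Tyb hearts, with a coefficient of variation of 4.34%. In the Ts1Rhr cohort it was at 434, 426, 448, 390.5 and 395 in WT hearts and at 461, 565, 415, 461 and 622 in Ts1Rhr hearts. There 4 of 5 mutant hearts exceeded the highest WT heart, for a log2 fold change in limma of 0.25 ± 0.11 (unadjusted P-value 0.0344, adjusted 0.795).

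Ptprc, which marks leukocytes in general and not macrophages alone, was at 54.5, 61.7, 54.9, 53.8 and 64.6 in the WT hearts and at 57.1, 77.5, 68.6, 111 and 83.9 in the Dp3Tyb hearts. The WT hearts lay close together, and 4 of 5 Dp3Tyb hearts were above all of them, for a log2 fold change in limma of 0.42 ± 0.17 (unadjusted P-value 0.0294, adjusted 1). In the Ts1Rhr cohort the ranges were 40.1 to 80.1 in WT and 51.5 to 97.2 in Ts1Rhr hearts and overlapped for 4 of the 5 mutant hearts, for a log2 fold change of 0.22 ± 0.21 that was -0.054 without the libraries over 10% mitochondrial reads.

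Csf1r, the receptor on which macrophages depend for survival, was at 527, 495, 541, 414 and 285 in the WT hearts and 488, 585, 525, 613 and 428 in the Dp3Tyb hearts. WT replicate 5 was far below the other 4, and the log2 fold change in limma was 0.25 ± 0.17 with it and 0.09 without it. In the Ts1Rhr cohort the counts were 399.5, 374, 467, 348 and 513 in WT hearts and 365, 449, 645, 559 and 629 in Ts1Rhr hearts. The 3 Ts1Rhr hearts with low mitochondrial shares, also those labelled as having no heart defects, were above every WT heart. The others were within the WT range, for a log2 fold change of 0.31 ± 0.16 (95% interval -0.035 to 0.66). Mitochondrial share and defect label cannot be told apart in these Ts1Rhr hearts. Cx3cr1, the receptor that keeps some macrophages in place through fractalkine, ranged from 138 to 298 in WT and from 235 to 292 in Dp3Tyb hearts (log2 fold change 0.14 ± 0.18), and from 167 to 240.1 in WT and from 188 to 309 in Ts1Rhr hearts (0.34 ± 0.14, unadjusted P-value 0.0323 and adjusted 0.795 in limma). Adgre1, the F4/80 antigen by which mouse macrophages are commonly recognised, ranged from 47.0 to 136 in WT and from 85.3 to 149.8 in Dp3Tyb hearts (0.21 ± 0.28), and from 59.3 to 112 in WT and from 80.2 to 158 in Ts1Rhr hearts (0.46 ± 0.20, unadjusted P-value 0.0378 and adjusted 0.795 in limma).

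The 3 C1q genes, whose products start the classical complement pathway and tag debris for uptake, were not called in Dp3Tyb hearts, and the intervals of their changes overlapped. C1qa was at 145, 116, 109.7, 83.7 and 61.7 in the WT hearts and 94.5, 131, 116, 151 and 130.1 in the Dp3Tyb hearts (log2 fold change 0.31 ± 0.22). C1qc ranged from 67.5 to 165 and from 123 to 167 (0.23 ± 0.22), and C1qb from 112 to 157 and from 104 to 165 (0.0046 ± 0.16). Without WT replicate 5, in which C1qa and C1qc were lowest, the log2 fold changes were 0.14 for C1qa, 0.03 for C1qc and -0.05 for C1qb. In the Ts1Rhr cohort C1qa was at 91.8, 79.2, 96.7, 97.6 and 118 in WT hearts and at 85.0, 136, 147, 137 and 144 in Ts1Rhr hearts. For C1qa and C1qc, 4 of the 5 Ts1Rhr hearts were above every WT heart and replicate 1 was among or below the lowest. The log2 fold changes in limma were 0.41 ± 0.16 for C1qa (unadjusted P-value 0.0284, adjusted 0.795), 0.24 ± 0.15 for C1qc and 0.18 ± 0.15 for C1qb.

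Cd68, the lysosomal glycoprotein of phagocytes, was the gene with opposite signs in the strains. In the Dp3Tyb cohort its counts were 64.9, 46.4, 54.9, 43.4 and 79.3 in WT and 60.5, 61.0, 67.0, 70.9 and 102 in Dp3Tyb hearts. In the Ts1Rhr cohort they were 69.1, 65.1, 51.1, 101 and 80.1 in WT and 53.9, 79.1, 48.8, 60.1 and 65.0 in Ts1Rhr hearts. The groups overlapped in both cohorts. The highest value of each group in the Dp3Tyb cohort and of WT in the Ts1Rhr cohort was in the library with that group's highest mitochondrial share, and so was the highest in Ts1Rhr hearts. The log2 fold changes in limma were 0.33 ± 0.20 in Dp3Tyb and -0.24 ± 0.19 in Ts1Rhr. Single hearts moved both: the first was 0.20 without Dp3Tyb replicate 5 and 0.45 without WT replicate 5, and the second was -0.11 without WT replicate 4 and -0.36 without WT replicate 3. Over all alternatives they ran from 0.20 to 0.48 and from -0.36 to -0.075, the last with the lung and foregut markers as a covariate. Their difference, 0.56 ± 0.28, was the largest of the 10 genes and did not pass the test (unadjusted P-value 0.0608, adjusted 1 in limma). The difference had an unadjusted P-value of 0.0390 in DESeq2 and 0.0484 in edgeR, and was not called by either after adjustment. Its sign held under every alternative, with values from 0.35 to 0.68.

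For the other 9 genes the Dp3Tyb change less the Ts1Rhr change lay between -0.25 (Adgre1) and 0.20 (Ptprc). None of the 10 genes passed the test of the difference in limma, which called 2 of 15348 genes (0.013%). In limma 0 of the 10 had an unadjusted P-value under 0.05, against 1.52% of all genes, while Cd68 was under it in DESeq2 and edgeR. DESeq2 and edgeR also called 0 of the 10, and 0.0111% and 0.013% of all genes they tested. The intervals were wide, from -0.99 to 0.49 for Adgre1 and from -0.27 to 0.36 for Mrc1, the narrowest.

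**Figure D3:**
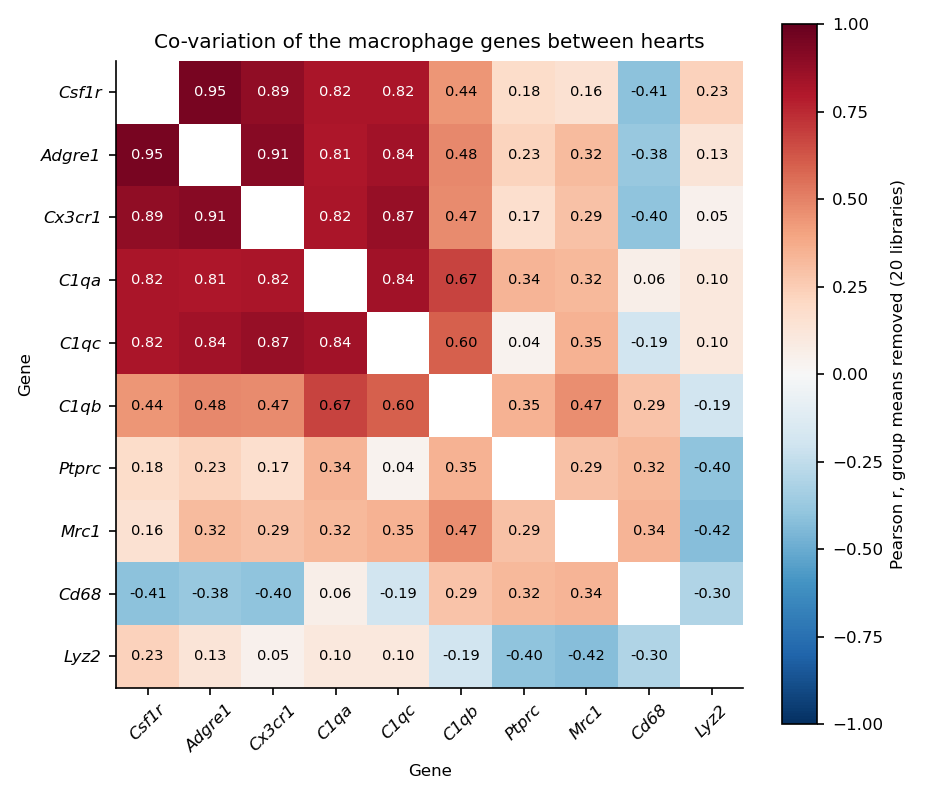
Pearson correlation (colour and printed value) between each pair of the 10 macrophage genes (both axes) over 20 libraries, computed on log2(value + 1) after removing the mean of each group. Csf1r, Adgre1, Cx3cr1, C1qa and C1qc form the block of high values, and Cd68 and Lyz2 stand outside it.

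Between hearts of the same group, part of the set varied together. With group means removed, Csf1r and Adgre1 had a Pearson r of 0.946 over the 20 libraries, Adgre1 and Cx3cr1 of 0.909, Csf1r and Cx3cr1 of 0.889, and C1qa and C1qc of 0.840. The median over the 45 pairs was 0.315, and 37 pairs were above 0. Against the mean of the other 9 genes, C1qa had the highest r (0.935), followed by C1qc (0.813), Adgre1 (0.811), Csf1r (0.796), Cx3cr1 (0.792) and C1qb (0.662). Mrc1 (0.393), Ptprc (0.272), Lyz2 (-0.0747) and Cd68 (-0.144) were well below, among them Lyz2, the gene with the lowest P-values. The lowest pair was Mrc1 with Lyz2 (-0.425). Without WT replicate 5 of the Dp3Tyb cohort the values over 19 libraries were 0.921 for Csf1r with Adgre1, 0.749 for C1qa with C1qc, 0.156 for Cd68 and -0.201 for Lyz2 against the others. These values describe libraries that also share depth and mitochondrial share, and carry no test.

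Outside the set, the genes most like its mean over the 20 libraries, by the same measure, were Mpeg1 (r = 0.928), Rflnb (0.920), Rab15 (0.904), Gper1 (0.888), Dlk1 (0.887), Ltbp3 (0.884), Col6a3 (0.883), Laptm5 (0.882), Cdon (0.877) and Galnt3 (0.871). Mpeg1, a pore-forming protein of phagocytes, and Laptm5, a lysosomal protein of blood cells, are known from macrophages, while Col6a3 is a collagen of connective tissue. Without WT replicate 5 of the Dp3Tyb cohort the 10 values lay between 0.825 and 0.905.

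**Figure D4:**
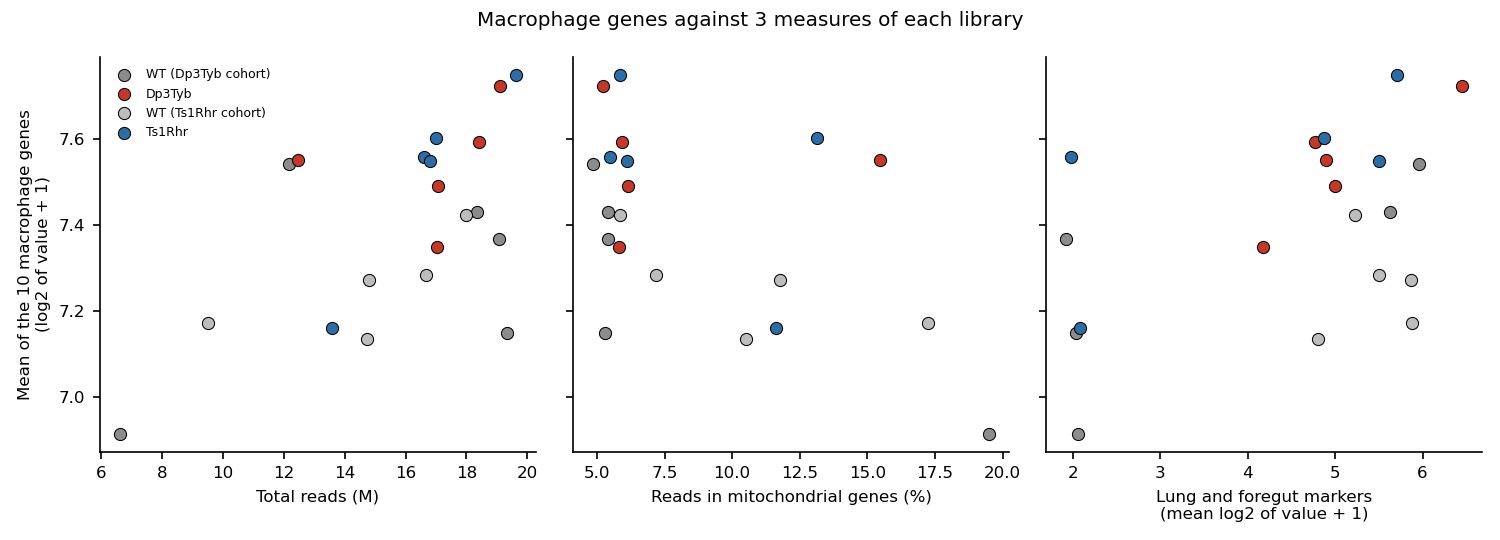
Mean of the 10 macrophage genes (y axis, log2 of value + 1) in each heart against total reads, the share of reads in mitochondrial genes in percent, and the mean level of lung and foregut markers (log2 of value + 1). The lowest heart, at 6.91, is WT replicate 5 of the Dp3Tyb cohort, which also has the fewest reads and the highest mitochondrial share, and the 5 hearts with lung and foregut scores of about 2 are 3 WT hearts of the Dp3Tyb cohort and 2 Ts1Rhr hearts.

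Measures of the libraries moved with the set in part. The mean of the 10 genes (log2 of value + 1) was 7.28 ± 0.25 in WT and 7.54 ± 0.14 in Dp3Tyb hearts, and 7.26 ± 0.11 in WT and 7.52 ± 0.22 in Ts1Rhr hearts (SD, n = 5). Within the libraries of up to 10% mitochondrial reads it was 7.37 in 4 WT and 7.54 in 4 Dp3Tyb hearts, and 7.35 in 2 WT and 7.62 in 3 Ts1Rhr hearts. With those libraries alone, the median log2 fold change of the 10 genes was 0.14 in Dp3Tyb, with 8 of 10 above WT, and 0.34 in Ts1Rhr, with 8 of 10. The 3 Ts1Rhr hearts kept there were those labelled as having no heart defects, so mitochondrial share and label cannot be told apart. Markers of the lung and foregut, which lie next to the heart, also differed between libraries. The summed level of 12 such markers ranged from 372 to 1096 in WT and 515 to 1512 in Dp3Tyb hearts, and from 618 to 1128 in WT and 419 to 1018 in Ts1Rhr hearts, while Nkx2-1, the defining factor of lung epithelium and named after its values were seen, was at 0 in 3 WT hearts of the Dp3Tyb cohort and in 1 Ts1Rhr heart. All 11 tested markers of this list had a log2 fold change above 0 in Dp3Tyb (median 1.93) and below 0 in Ts1Rhr (median -1.77), with 0 called. With their mean as a covariate, the median log2 fold change of the macrophage genes in Ts1Rhr was 0.38, with 9 of 10 above WT, against the 0.058 given above for Dp3Tyb. The part of lung tissue and of mitochondrial share in the macrophage values was not tested beyond these fits. Erythroid markers were above WT for 8 of 9 tested genes in Dp3Tyb and 9 of 10 in Ts1Rhr (medians 0.13 and 0.29), and their summed level ranged from 32704 to 68622 in WT and 42823 to 78184 in Dp3Tyb hearts, and from 59974 to 239150 in WT and 110480 to 177680 in Ts1Rhr hearts. With the erythroid score as a covariate the median of the macrophage genes was 0.22 and 0.25. Cardiomyocyte markers, led by Myh7 and Actc1, had medians of -0.084 and -0.048 with 4 of 11 above WT in each strain, and mesenchymal markers, led by Col3a1 and Col1a1, had medians of 0.20 and 0.094 with 8 of 8 and 7 of 8 above WT.

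**Figure D5:**
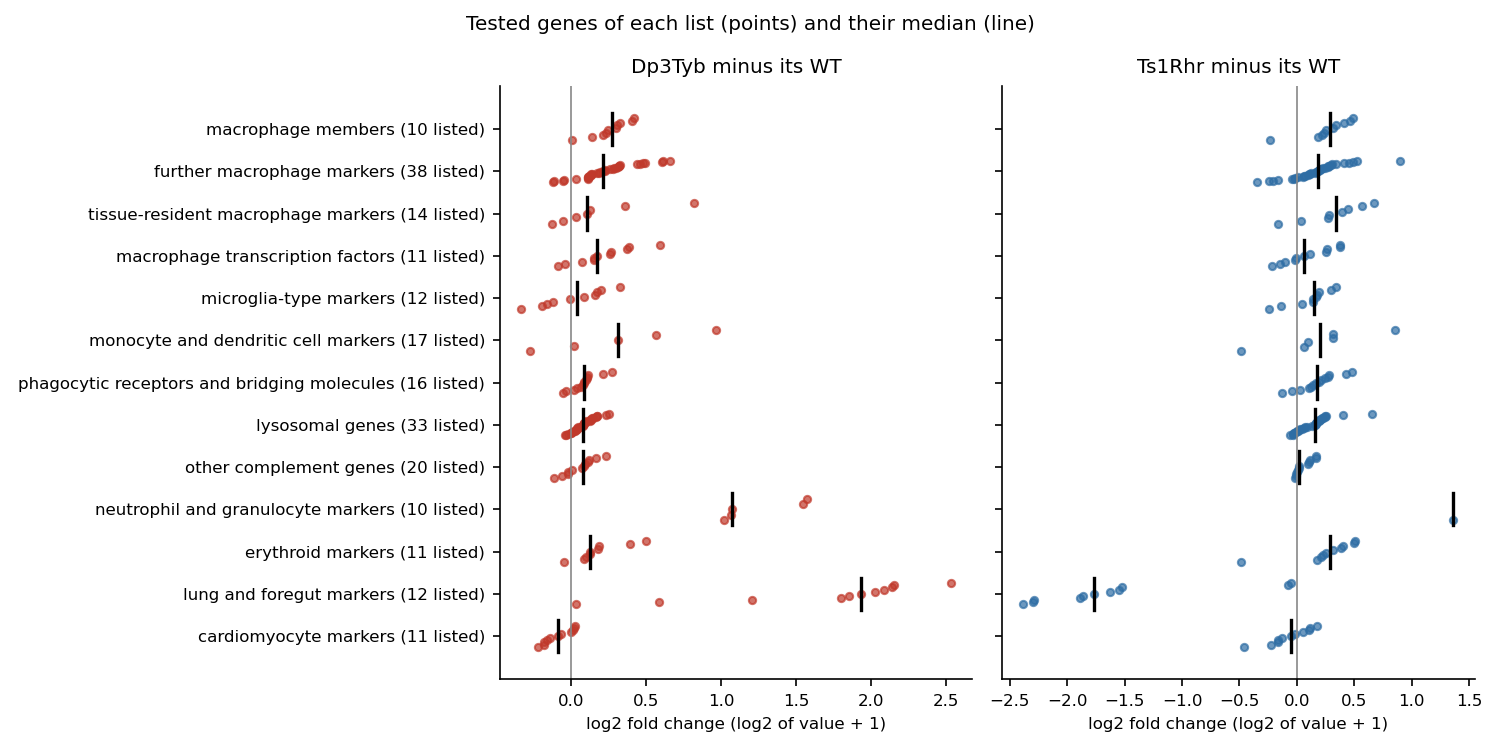
Log2 fold changes (x axis, log2 of value + 1) of the tested genes of 13 lists (y axis), one point a gene and a black line at the median, in Dp3Tyb and Ts1Rhr hearts against their own WT groups. Most of the further macrophage markers lie to the right of 0 in both panels, whereas the lung and foregut markers lie to the right in Dp3Tyb and to the left in Ts1Rhr.

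In the wider lists of macrophage genes limma called 0 genes in either strain. Of 35 tested further macrophage markers, 31 were above WT in Dp3Tyb and 28 in Ts1Rhr (medians 0.21 and 0.18), with 0 and 3 higher at an unadjusted P-value under 0.05, against 1.59% and 2.86% of all genes tested, and 0 and 1 lower. These were Alox5ap, Ms4a6b and Itgam, which were higher, and Pla2g7, which was lower (-0.24 ± 0.095), named here after their values were seen. The most abundant of them, Apoe, which encodes a lipid carrier, had log2 fold changes of 0.12 ± 0.074 and 0.12 ± 0.069. Alox5ap, needed for leukotriene synthesis, had the largest change of this list in Ts1Rhr, at 0.89 ± 0.23 (adjusted P-value 0.795 in limma and 0.529 in DESeq2), with 10.8 to 26.7 in WT hearts and 26.6 to 32.9 in Ts1Rhr hearts. In Dp3Tyb hearts it was at 0.28 ± 0.24.

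Among markers of tissue-resident macrophages, Lyve1, a hyaluronan receptor found on resident macrophages and also on lymphatic and embryonic endothelium, had the largest change in Dp3Tyb. It was at 188, 132, 129, 98.0 and 106 in WT hearts and at 204, 185, 273, 259 and 215 in Dp3Tyb hearts, so that only Dp3Tyb replicate 2 and WT replicate 1 overlapped. The log2 fold change was 0.82 ± 0.18. It was not called by limma (adjusted P-value 0.48) and was called by DESeq2 (adjusted P-value 0.0246), which called 30 of 18895 genes (0.159%). In Ts1Rhr hearts Lyve1 ranged from 178 to 319, against 163 to 196 in WT, for a log2 fold change in limma of 0.44 ± 0.14 (adjusted P-value 0.422 in DESeq2). Of the list, 5 of 7 tested genes were above WT in Dp3Tyb and 7 of 8 in Ts1Rhr, and 6 of its 14 genes were below the filter in the fit of all hearts.

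Among macrophage transcription factors, 9 of 11 were above WT in Dp3Tyb and 6 of 11 in Ts1Rhr (medians 0.17 and 0.061). Ikzf1, which acts in many blood lineages, separated the groups in Dp3Tyb, with 23.5 to 39.6 in WT and 42.3 to 76.0 in Dp3Tyb hearts (as 0.501% of all genes tested did in this direction), for a log2 fold change of 0.59 ± 0.20 (unadjusted P-value 0.014 and adjusted 1 in limma). In Ts1Rhr it was at 0.11 ± 0.24. Maf and Mef2c, the most abundant of the list, are also expressed outside macrophages and were at 0.15 and -0.043 in Dp3Tyb and at -0.15 and -0.021 in Ts1Rhr. Spi1, named here after its values were seen because of its role, ranged from 22.4 to 37.1 in WT and from 26.4 to 44.9 in Dp3Tyb hearts, and from 23.9 to 35.6 in WT and from 33.5 to 41.9 in Ts1Rhr hearts.

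The ligands of the receptors in the set were not called in either strain. Csf1, the ligand of Csf1r, ranged from 328 to 388 in WT and 337 to 412 in Dp3Tyb hearts, and from 341 to 425 in WT and 339 to 432 in Ts1Rhr hearts, with log2 fold changes of 0.052 ± 0.079 and 0.056 ± 0.092. Cx3cl1, the ligand of Cx3cr1, was at -0.11 ± 0.18 and 0.28 ± 0.14. Il34, the other ligand of Csf1r, did not pass the filter, with at most 5.79 normalised counts in any heart.

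Lysosomal genes, which digest what phagocytes take up and are used by every cell, were above WT for 29 of 33 in Dp3Tyb and 26 of 33 in Ts1Rhr, with small medians of 0.081 and 0.16. At an unadjusted P-value under 0.05 in limma, 2 and 6 of the 33 were higher, against 1.59% and 2.86% of all genes tested, and 0 were lower. None was called. Lyz1 had the largest changes, 0.25 ± 0.20 in Dp3Tyb and 0.65 ± 0.25 in Ts1Rhr. Lamp1 and Psap, the most abundant, were at 0.036 and 0.079 in Dp3Tyb and at 0.0089 and 0.19 in Ts1Rhr. Phagocytic receptors and bridging molecules were above WT for 12 of 14 in each strain (medians 0.087 and 0.18), and the scavenger receptor Msr1 had the largest changes, 0.27 ± 0.25 and 0.48 ± 0.20. Complement genes other than C1q were above WT for 8 of 12 and 9 of 12 (medians 0.079 and 0.018), and microglia-type markers for 5 of 10 and 8 of 10 (0.039 and 0.15).

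Most of the tested markers of other myeloid cells were above WT in both strains, but many did not pass the filter and limma called 0. The summed level of 10 neutrophil and granulocyte genes ranged from 11.7 to 109 in WT and 64.7 to 147 in Dp3Tyb hearts, and from 14.0 to 59.8 in WT and 38.3 to 131 in Ts1Rhr hearts. Mpo, the myeloperoxidase of neutrophil precursors, ranged from 2.94 to 10.4 in WT and from 9.79 to 54.0 in Dp3Tyb hearts, for a log2 fold change of 1.55 ± 0.45 (unadjusted P-value 0.0058 in limma, adjusted P-value 0.174 in DESeq2). S100a8, a calcium-binding protein of neutrophils, was at 1.07 ± 0.55 in Dp3Tyb hearts and at 1.36 ± 0.56 in Ts1Rhr hearts (unadjusted P-value 0.0328 in limma). Of these 10 genes, 5 passed the filter for the Dp3Tyb comparison and 1 for that of Ts1Rhr, and a gene this low can pass through the group in which it is high. Ccr2, which marks monocytes and the macrophages derived from them, ranged from 3.74 to 13.1 and from 9.32 to 25.3, and in the Ts1Rhr cohort from 4.32 to 19.4 in WT and from 12.7 to 30.0 in Ts1Rhr hearts. Its log2 fold changes in limma were 0.97 ± 0.36 and 0.85 ± 0.38 (adjusted P-values 1 and 0.884 in DESeq2). These were the largest changes among the tested genes of a list of 17 monocyte and dendritic cell markers. Of the tested genes of that list, 4 of 5 were above WT in Dp3Tyb and 5 of 6 in Ts1Rhr. Below WT were Ccl2 in Dp3Tyb hearts (-0.28 ± 0.29) and Cd74 in Ts1Rhr hearts (-0.49 ± 0.47). The summed level of 8 mast cell and basophil genes ranged from 13.7 to 64.6 in WT and 20.4 to 49.2 in Dp3Tyb hearts, and from 14.3 to 70.3 in WT and 17.8 to 51.9 in Ts1Rhr hearts. The highest sum was in a WT heart in both cohorts, but the medians were higher in the mutants. They were 16.45 in WT and 30.8 in Dp3Tyb hearts, and 16.3 in WT and 27.5 in Ts1Rhr hearts. Of these genes, 1 of 1 tested was above WT in Dp3Tyb and 2 of 2 in Ts1Rhr. Lyz2 is also made by neutrophils and monocytes, and their part in its values was not tested. Lymphocyte markers were low apart from Ebf1, which is also expressed in mesenchyme, and 9 of the 10 did not pass the filter.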

How the data were processed

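RNA from 20 snap-frozen E13.5 hearts was sequenced from poly(A)-selected libraries on an Illumina HiSeq instrument. The submitters' processing notes name Trimmomatic 0.36, STAR 2.5.2a, RSEM 1.2.31, DESeq2 and DESeq and the build GRCm38, and the annotation and the use of strand are not given in the sources used here. The authors deposited one table of normalised counts, a signal equal to whole reads divided by size factors: 100% of the values were whole reads within a tolerance of 0.001, and size factors recomputed from these reads matched. Symbols came from GENCODE vM39 by Ensembl identifier (44565 of 48795, 91.3%), transcript lengths from its canonical transcripts, and positions and promoters from RefSeq GRCm38.p6.

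The values being normalised, limma 3.58.1 (R 4.3.3) on log2(value + 1), with a trended and robust prior and Benjamini-Hochberg adjustment over all genes that reached 10 in 5 or more fitted libraries, was the main test in place of the DESeq2 used by the study. It was run two-sided on each cohort of 10 libraries, and on all 20 for the difference between strains. A fold change on this scale understates that of low genes. DESeq2 1.42.0 and edgeR 4.0.16 on the recovered reads, other pseudocounts, no filter, TMM scaling, covariates, array weights and left-out libraries were alternatives. The fits were tested on simulated data.

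The members, lists and alternatives were chosen with earlier results of these data known. Beside the 10 genes, genes were named from the 2 most abundant and the most changed of the lists, as receptor ligands, and as the 10 genes most like the set. Not every list or every such gene is given, and some others were named after their values were seen. Replicate numbers follow the order of the samples and were not used to pair hearts.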

Additional observations from a re-analysis of the deposited data

Results flagged for a closer look

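In 40 groups of 5 hearts (10 genes, 4 groups), 3 had a heart whose gap to its nearest neighbour was more than 0.71 of the whole range, the 95% limit of Dixon's test, where chance gives about 1 in 20. Ts1Rhr replicate 1 was lowest for C1qa (85.0, ratio 0.812) and for C1qc (100.6, ratio 0.755). Dp3Tyb replicate 5 was highest for Cd68 (102.1, ratio 0.749). Ts1Rhr replicate 1 held 11.6% and Dp3Tyb replicate 5 held 15.5% mitochondrial reads, and their part in these values was not tested.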

How the results depend on the processing

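No macrophage gene passed the adjusted threshold under any of the 22 alternatives for each strain or of those for the difference between strains. The median log2 fold change of the 10 genes stayed above 0, at 0.115 to 0.36 without single libraries in Dp3Tyb and 0.215 to 0.407 in Ts1Rhr. It was 0.0583 in Dp3Tyb with the lung and foregut score as covariate, and 0.115 and 0.24 without the 2 libraries with the fewest reads (chosen after seeing the data). Some signs turned. In Dp3Tyb, Adgre1 was at -0.0897 and C1qb at -0.129 with the lung and foregut covariate, C1qb at -0.00601 with DESeq2, -0.125 without libraries over 10% mitochondrial reads and -0.147 with array weights, and Cx3cr1 at -0.0334 without libraries over 10% mitochondrial reads, as was Ptprc at -0.0541 in Ts1Rhr. For the difference between strains, the mitochondrial covariate gave 0.073 for Csf1r and 0.0989 for C1qc, the erythroid covariate 0.000544 for C1qc, the lung and foregut covariate -0.211 for Mrc1, -0.0538 for Ptprc and 0.0323 for Lyz2, and array weights -0.0465 for Ptprc and 0.0267 for Lyz2. Leaving out single libraries gave ranges that crossed 0 for Adgre1 (-0.0429 to 0.335), C1qb (-0.0677 to 0.0967) and Cx3cr1 (-0.0463 to 0.23) in Dp3Tyb, and for the difference between strains for Csf1r (-0.225 to 0.0115), C1qa (-0.265 to 0.04), C1qc (-0.212 to 0.106), Mrc1 (-0.0221 to 0.136) and Lyz2 (-0.168 to 0.0374). The cause was not tested. No paired analysis was possible because the labels carry no replicate numbers and name no litters, and sample order was not used in their place. Depth limits the genes counted on few reads most, as Adgre1 was on 16 reads in its shallowest library.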
